A study of Mus musculus with 8 samples.

Results

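Very long transcript intervals are the stretches of the genome, introns included, that run from start to end of an annotated transcript and measure at least 300000 bp. The deposited table held 50398 intervals, of which 1473 reached that length. Overlapping isoforms were collapsed to the longest, which left 372 very long intervals, and 368 of them could be given a gene symbol (356 coding genes and 12 long non-coding RNAs). Their lengths ran from 300557 to 2390387 bp with a median of 440274 bp. The shorter intervals numbered 48925. Length alone chose the members, so the signal over them was free to take any value.

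The study profiled H3K27me3, the trimethylated lysine of histone H3, by chromatin immunoprecipitation and sequencing (ChIP-seq) in mouse embryonic stem cells. All libraries came from the 129SV line E14tg2a carrying cRAF-ErT2, in which 4-hydroxytamoxifen (4OHT) activates the RAF kinase through a fused receptor domain, in clones A and B of that line. Every culture was kept in serum, LIF and 2 uM Chir99021, an inhibitor of GSK3, and then spent 24 h in serum, LIF and 250 nM PD173074, an inhibitor of FGF receptors. The groups were untreated cells (0 h, clones A and B) and cells given 250 nM 4OHT for 2 h (clones A and B). Each time thus holds 2 libraries, 1 per clone, and both clones derive from 1 line. The labels do not say that libraries of a group came from separate cultures, so every p-value measures only the spread between these libraries, which may be technical.

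H3K27me3 is written by Polycomb repressive complex 2 and marks genes held silent. In embryonic stem cells it gathers at CpG-rich starts of developmental regulators that will be used in later lineages, where it can cover a whole short gene. Genes of extreme length are rich in proteins of neurons and muscle, such as synaptic adhesion molecules, ion channels and dystrophin, and most of their sequence is intron. Several lie at common fragile sites, places where chromosomes tend to break under replication stress.

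Promoter windows were available for part of the members, from RefSeq on GRCm38.p6, which is the assembly of mm10. A window covers 250 bases before to 50 bases after an annotated start, and 209 of the 372 intervals started within 500 bp of one. The windows below show starts from both ends of the density range and 1 pair of host and inner gene. They were picked after the values were seen, and capitals mark CpG dinucleotides. Ephb1 (chr9:102354644-102354943, minus strand) and Clstn2 (chr9:98033118-98033417, minus strand) were among the 12 densest members, Pola1 (chrX:93632106-93632405, minus strand) and Skint6 (chr4:113286924-113287223, minus strand) among the 8 least dense. Ctnna2 (chr6:77979618-77979917, minus strand) is a host whose inner gene Lrrtm1 (chr6:77242227-77242526, plus strand) was far denser than the host itself.
Ephb1: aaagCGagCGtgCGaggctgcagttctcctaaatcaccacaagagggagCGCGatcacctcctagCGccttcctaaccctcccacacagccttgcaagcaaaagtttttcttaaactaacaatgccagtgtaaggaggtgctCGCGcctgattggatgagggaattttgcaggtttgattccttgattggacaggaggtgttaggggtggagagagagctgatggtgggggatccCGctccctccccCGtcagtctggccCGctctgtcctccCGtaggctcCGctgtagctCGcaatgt
Clstn2: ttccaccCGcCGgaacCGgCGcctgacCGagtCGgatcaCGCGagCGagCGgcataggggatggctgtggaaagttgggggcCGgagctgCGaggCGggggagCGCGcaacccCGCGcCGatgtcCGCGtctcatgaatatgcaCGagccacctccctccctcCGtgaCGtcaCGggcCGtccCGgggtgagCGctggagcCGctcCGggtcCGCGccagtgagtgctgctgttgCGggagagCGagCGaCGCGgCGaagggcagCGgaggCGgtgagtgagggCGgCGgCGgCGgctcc
Pola1: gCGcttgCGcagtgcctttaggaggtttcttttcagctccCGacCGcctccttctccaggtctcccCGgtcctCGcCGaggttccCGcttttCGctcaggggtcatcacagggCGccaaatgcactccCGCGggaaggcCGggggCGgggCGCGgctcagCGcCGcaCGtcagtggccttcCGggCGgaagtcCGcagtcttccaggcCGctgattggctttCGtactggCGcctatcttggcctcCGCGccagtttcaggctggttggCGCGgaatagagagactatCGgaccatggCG
Skint6: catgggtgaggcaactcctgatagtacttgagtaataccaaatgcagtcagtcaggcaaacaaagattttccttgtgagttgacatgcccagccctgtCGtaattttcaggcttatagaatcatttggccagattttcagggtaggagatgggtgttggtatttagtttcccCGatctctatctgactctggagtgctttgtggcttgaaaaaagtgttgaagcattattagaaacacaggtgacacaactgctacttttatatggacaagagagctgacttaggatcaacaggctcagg
Ctnna2: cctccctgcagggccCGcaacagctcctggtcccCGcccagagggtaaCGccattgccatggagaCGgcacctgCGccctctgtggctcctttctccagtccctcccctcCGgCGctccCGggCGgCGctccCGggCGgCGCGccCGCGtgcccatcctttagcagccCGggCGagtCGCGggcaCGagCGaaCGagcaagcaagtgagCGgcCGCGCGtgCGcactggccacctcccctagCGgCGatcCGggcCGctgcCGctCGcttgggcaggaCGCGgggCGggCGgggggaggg
Lrrtm1: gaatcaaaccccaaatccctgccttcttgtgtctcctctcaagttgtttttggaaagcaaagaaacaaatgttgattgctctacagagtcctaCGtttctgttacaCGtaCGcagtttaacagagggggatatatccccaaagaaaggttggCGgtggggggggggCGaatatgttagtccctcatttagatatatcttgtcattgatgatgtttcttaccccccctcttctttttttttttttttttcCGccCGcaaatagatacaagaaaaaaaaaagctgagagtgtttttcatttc

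The printed windows held 14 CpG in Ephb1, 43 in Clstn2, 31 in Pola1, 2 in Skint6, 38 in Ctnna2 and 7 in Lrrtm1. CpG was counted as the letters CG, which read the same on both strands. Across the 209 matched members the median was 17 CpG per window, against 7 over all 32851 windows of the same length. At least 10 CpG stood in 72.2% of the member windows and in 43.5% of all windows. CpG content and H3K27me3 density over the interval were barely related among the members (Spearman's rank correlation 0.0825 over 209 members, a description across genes, with no test). On the autosomes the 141 members with at least 10 CpG had a median density of 0.373 and the 50 members with fewer had 0.356. Density here is the read count per kb of interval per 1000000 counts of the library's column in the table.

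Coverage of the members was deep because they are long. At 0 h the columns summed to 70378127 counts for clone A and 81279899 for clone B, and at 2 h to 92518605 and 85062523. The median member held 12648, 14892, 16438 and 15296 counts in the same order, where the median interval of the table held 427, 477, 558 and 519. The immunoprecipitation separated silent from active genes in the direction the mark is known for. Hoxa9 and Hoxd13, silent body-axis genes, stood at densities of 5.46 and 5.34, while the pluripotency genes Sox2, Klf4 and Nanog stood at 0.109, 0.119 and 0.230. Input libraries were not analysed here, so density is not an enrichment over input.

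The first question was how much of the mark very long intervals carried. Their whole-interval densities sat in a narrow band around the typical gene, and almost none reached the limit for a marked interval defined below. Such a density averages over the full length, so it cannot tell whether a shorter stretch is a Polycomb target. Inner intervals and first stretches that passed that limit are described below, and how far averaging narrows the band was not tested. The median density of the members was 0.359, and the median of all named genes was 0.357. From the 10th to the 90th percentile member densities ran from 0.195 to 0.590, a 3.02-fold span, whereas shorter genes ran from 0.0898 to 1.02, an 11.4-fold span. Of the 372 members 330 (88.7%) lay within 2-fold of the median gene, compared with 52.4% of the 19858 shorter genes.

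**Figure D1:**
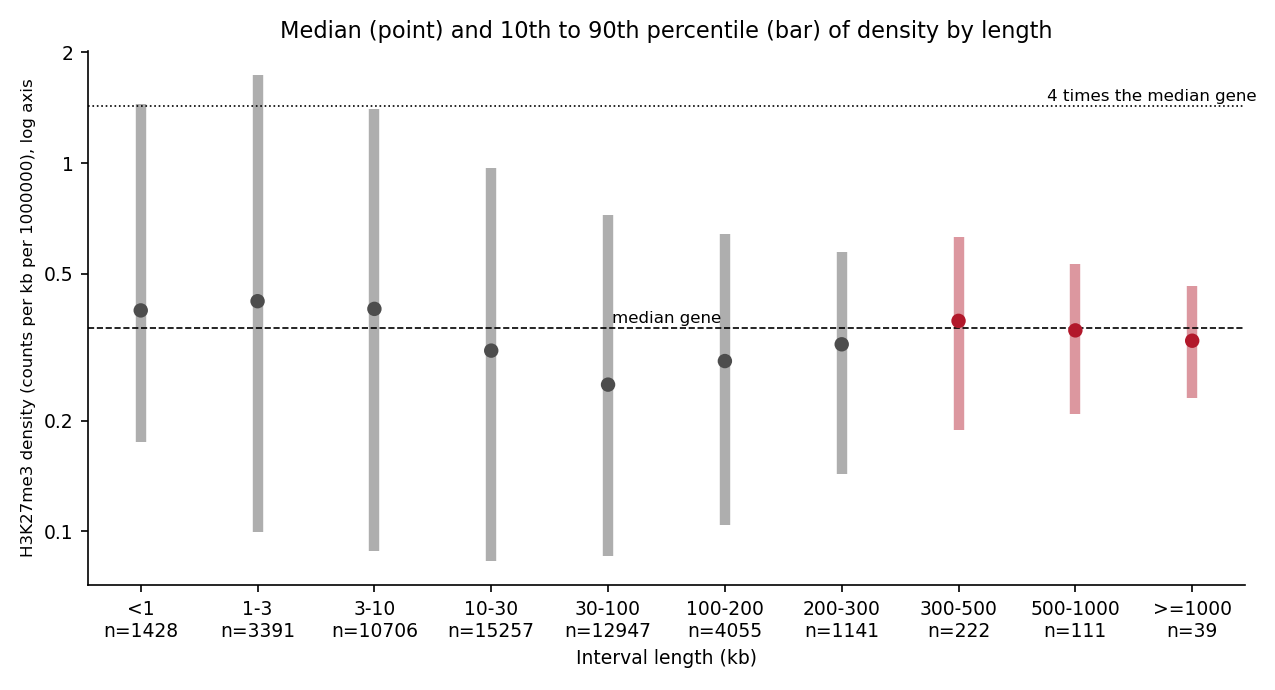
Density of H3K27me3 (counts per kb per 1000000, log axis) by interval length in kb, as the median (point) with the 10th to 90th percentile (bar). From 1000 bp upwards the bars narrow with length, and the 3 red classes of very long intervals have medians of 0.373, 0.351 and 0.329, close to the dashed line of the median gene at 0.357.

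Both tails of the distribution were thin. A density of at least 4 times the median gene (1.43), used here as the limit for a marked interval, was reached by 1 member, the potassium channel gene Kcnq1 (0.269% of members), against 5.88% of shorter genes. The scarcity was not particular to the members. Marked were 0.0493% of intervals of 100000 to 200000 bp and 0% of those of 200000 to 300000 bp. Among members of 300000 to 500000 bp the share was 0.450%. At 2 times the median gene the counts were 14 members (3.76%) and 19.2% of shorter genes. Below 0.5 times the median gene stood 28 members (7.53%) and 28.5% of shorter genes.

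Whether the members were denser than other intervals depended on what they were set against. Their median exceeded that of all shorter intervals in 4 of 4 libraries, with log2 ratios of 0.17 and 0.21 at 0 h (clones A and B) and of 0.16 and 0.18 at 2 h. The mean was 0.179 ± 0.0233 (SD, n = 4 libraries), and the exact two-sided sign-flip permutation test over libraries gave a p of 1 in 8, the smallest it allows. With 1 interval per gene as the reference, an alternative added after the data were seen, the mean log2 ratio shrank to 0.0190 ± 0.0146. The table lists some genes many times, so the first reference counts those genes repeatedly.

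Length itself carried little information once an interval was very long. Spearman's rank correlation between density and length was -0.0358 over the 372 members and -0.167 over the shorter intervals (descriptions across intervals that share libraries, with no test). Members of 300000 to 500000 bp had a median of 0.373 (n = 222), those of 500000 to 1000000 bp 0.351 (n = 111) and those of at least 1000000 bp 0.329 (n = 39). The upper end differed more than the middle: the 90th percentile was 0.630, 0.531 and 0.464 in these classes.

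Values at the length limit itself are given for 3 intervals on each side. Just inside were Jazf1 (300557 bp, density 0.635), Cacna1a (301610 bp, 0.582) and Dync1i1 (302408 bp, 0.511). Just outside were Akap13 (299076 bp, 0.150), Slc44a5 (298323 bp, 0.569) and Atp2b2 (298152 bp, 0.572).

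Kcnq1, whose channel repolarises heart muscle and which lies in an imprinted cluster, was the densest member at chr7:143106742-143427050. Its density was 2.38 and 2.23 at 0 h (clones A and B) and 2.51 and 2.20 at 2 h, which is 6.52 times the median gene. Signal was high in more than 1 part of the gene. A shorter isoform covering 154137 bp from near the same start had 2.09. The opposite-strand transcript 4933417O13Rik, further along the gene, had 3.35. It was not even, since the density outside inner intervals of other genes (28.5% of the length) was 2.75. Those inner intervals together were thus less dense than the rest. No other member came within a factor of 2 of Kcnq1, since the next was Kif26b, a kinesin-family gene, with 1.13 and 1.13 at 0 h and 1.15 and 1.11 at 2 h.

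The other 10 of the 12 densest members followed below these. Shank2, a scaffold of excitatory synapses, had 0.905 and 1.09 at 0 h (clones A and B) and 1.03 and 1.11 at 2 h. Ephb1, a receptor for ephrins in axon guidance, had 0.861 and 1.03 at 0 h and 0.892 and 1.01 at 2 h. In both genes the clone B libraries lay above the clone A libraries, whereas 0 h and 2 h overlapped. Mean densities over the 4 libraries were 0.845 for Hydin (a protein of motile cilia), 0.797 for Zfp536 (a zinc finger protein of neurons), 0.756 for Clstn2 (a synaptic calsyntenin) and 0.755 for Cdh23 (a cadherin of hair cell tip links). Plxna4, a semaphorin receptor, had 0.750, Galnt18, of the family that starts mucin-type glycans, 0.745, Dscaml1, an immunoglobulin adhesion protein, 0.742, and the metalloprotease gene Adam12 0.739.

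Of the 8 least dense members 3 had no gene symbol. An unnamed interval at chr4:42172841-42587040 collected only 18, 28, 28 and 25 counts over 414200 bp, and another at chrX:24971459-25404966 collected 497, 684, 639 and 712. A further unnamed interval at chr2:177000955-177512311 had a density of 0.0725, and Skint6, of a family of immunoglobulin-like genes of skin and thymus, had 0.0386. How the alignment treated reads that match several places is not given in the sources used here, and its part in these values was not tested. The named genes with ordinary counts were Pola1, the catalytic subunit of DNA polymerase alpha (0.0585), Diaph2, a formin (0.0796), Cask, a scaffold kinase of synapses (0.105), and Rere, a nuclear receptor corepressor (0.116).

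**Figure D2:**
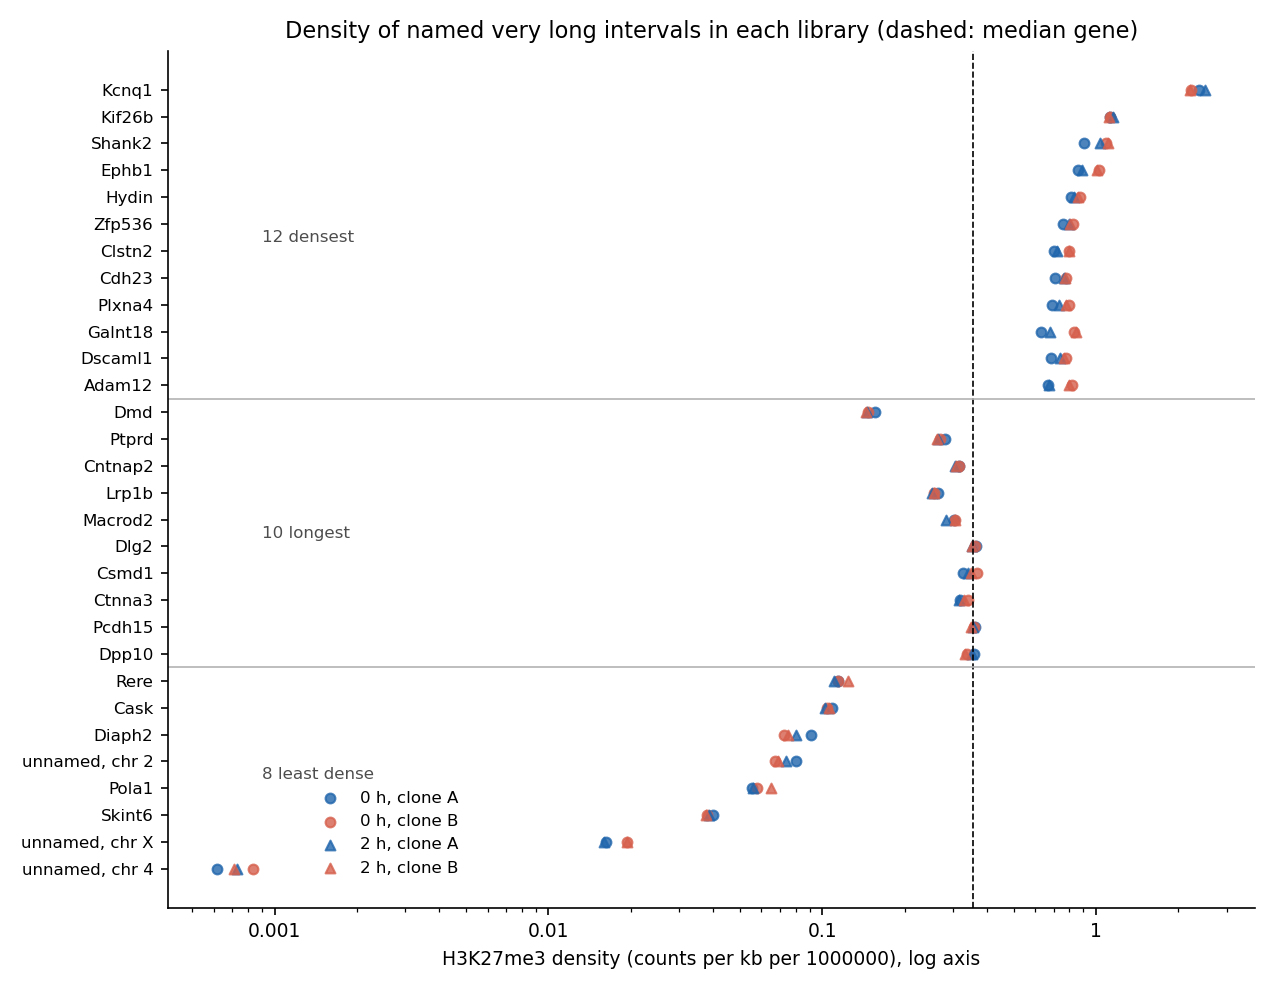
Density in each of the 4 libraries (counts per kb per 1000000, log axis) for the 12 densest, the 10 longest and the 8 least dense very long intervals, with clone A in blue, clone B in red, 0 h as circles and 2 h as triangles. The 10 longest lie near or left of the dashed median gene, and Kcnq1 lies apart at the right with 2.20 to 2.51.

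The 10 longest members all lay near or below the typical gene. Dmd, which encodes dystrophin and spans 2390387 bp at chrX:82814664-85205050, had 0.157 and 0.147 at 0 h and 0.146 and 0.144 at 2 h, 0.416 times the median gene. Ptprd, a receptor phosphatase of synapses, had 0.270, Cntnap2, a neurexin-like protein of myelinated axons, 0.311, and Lrp1b, of the lipoprotein receptor family, 0.257. Macrod2, an ADP-ribose hydrolase, had 0.299, and Ctnna3, an alpha-catenin of heart, 0.326. Closest to the median gene were Dlg2, a synaptic scaffold (0.358), Pcdh15, a protocadherin of hair cells (0.356), Csmd1, a complement regulator (0.346), and Dpp10, a subunit of potassium channels (0.346).

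Chromosome X separated from all autosomes. Every one of its 26 very long intervals lay below the autosomal member median, and their own median was 0.177 against 0.373 for the 346 autosomal members. The ratio of X to autosomal medians was 0.498 and 0.455 at 0 h (clones A and B) and 0.487 and 0.452 at 2 h, a mean of 0.473 ± 0.0229 (SD, n = 4). Shorter intervals gave the same mean, 0.473 ± 0.0058, so the lower level of X was not limited to length. E14tg2a is a male line with a single X. Autosomal medians of the members ran from 0.341 on chromosome 1 to 0.534 on chromosome 7.

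Members were grouped by the role of the protein, and 186 of the 372 fell in at least 1 of 11 gene lists, some in more than 1. No listed member reached the limit of a marked interval, but Kcnq1, the 1 member that did, was left out of all 11 lists. The lists differed mainly in how far their medians lay from 0.359. Highest was the list of transcription and chromatin regulators (27 members), with a median of 0.463 ± 0.0239 (SD of the list median over 4 libraries), and 20 of the 27 exceeded the member median. Its top was Zfp536 (0.797), Maml3, a Notch coactivator (0.736), and Prdm16, a regulator of brown fat and of haematopoietic stem cells (0.732). At its foot stood Cux1, a homeobox gene (0.185), and the X-linked Dach2 (0.133). Lowest was the list of housekeeping roles (18 members, from vesicle trafficking to repair), with a median of 0.244 ± 0.0066. In it 3 members exceeded the member median and 6 fell below 0.5 times the median gene. Diaph2 (0.0796) and Mad1l1, a spindle checkpoint gene (0.144), were lowest, and Wwox, an oxidoreductase at a fragile site (0.677), Ttc28 (0.615) and Inpp4b, a phosphoinositide phosphatase (0.397), were highest. Only 1 housekeeping member is X-linked, and the autosomal median of the list was 0.256.

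Synaptic and neural adhesion genes (31 members) had a median of 0.335 ± 0.0064 and ran from Ptprk (0.141) and the X-linked Tenm1 (0.143) to Dscaml1 and Clstn2. Neurotransmitter receptors (11 members) had 0.386 ± 0.0242, with the glutamate receptor genes Grin2b (0.631), Grik4 (0.618) and Grm8 (0.419) highest and Gria4 (0.281) and Grik2 (0.278) lowest. Synaptic scaffolds and release factors (15 members) had 0.379 ± 0.0120, led by Shank2, Dlgap2 (0.656) and Syn3 (0.607), with Erbb4, the neuregulin receptor (0.266), and Magi1 (0.208) last. Axon guidance and migration genes (14 members) had 0.385 ± 0.0050, led by Ephb1, Plxna4 and Nav2 (0.572), with the guidance ligand Slit2 (0.304) and Plxdc2 (0.230) last.

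Ion channel genes (18 members) had a median of 0.362 ± 0.0060, and 3 calcium channel or channel-partner genes led them: Cacna1c (0.683), Cacna1e (0.620) and Dpp6 (0.592). The calcium release channel Itpr1 (0.197) and the auxiliary subunit gene Cacna2d1 (0.187) stood last. Kcnq1 was not in that list. Cadherins and catenins (10 members) had 0.432 ± 0.0283, from the X-linked Pcdh11x (0.151) to Cdh4 (0.591), Cdh13 (0.612) and Cdh23.

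Structural genes and fragile site genes had medians below that of all members. Dystrophin complex and matrix genes (17 members, 3 of them X-linked) had a median of 0.306 ± 0.0057, or 0.329 on the autosomes. The protease gene Adamts17 (0.534) and the collagens Col19a1 (0.446) and Col25a1 (0.439) were highest, and the glypican gene Gpc3 (0.181) and Dmd lowest. Common fragile site genes (20 members) had 0.326 ± 0.0052, where 6 exceeded the member median, Wwox, Rora (0.517) and Auts2 (0.451) above all, while Il1rapl1 (0.159) and Dmd were lowest. Kinases, phosphodiesterases and GTPase regulators (20 members) had 0.381 ± 0.0230, from Arhgap6 (0.231) and the phospholipase gene Plcb4 (0.185) to the neurotrophin receptor Ntrk3 (0.593), Plcl1 (0.557) and Ror1, a Wnt receptor (0.520). The lists were chosen with earlier results of these data known, and their medians are given as descriptions. The order of the middle lists depended on collapsing isoforms. With all isoforms counted ion channels had 0.422, cadherins and catenins 0.366 and neurotransmitter receptors 0.341. Regulators stayed highest (0.466) and housekeeping roles lowest (0.266). The SD over libraries does not include this shift.

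A whole-interval density averages over a long stretch of genome, so the table's shorter intervals inside the members were used to see where the signal lay. At least 1 inner interval was listed in 348 members, and in 17 of them at least 1 inner interval was itself marked (29 intervals in all, several of them isoforms of one another). Of the 29, 8 lay in Kcnq1, which is itself marked. Among all shorter intervals 5.03% were marked. The share among inner intervals was not computed, so these are examples and not an excess in the members. Mab21l1, a gene of eye development on the opposite strand within Nbea, had 3.67 and 3.11 at 0 h and 3.55 and 2.97 at 2 h, a mean of 3.33, where its host Nbea, a vesicle trafficking gene, had 0.289. Mab21l2, its paralogue within Lrba, had a mean of 2.61, where Lrba had 0.262. The inner genes thus exceeded their hosts 11.5-fold and 9.95-fold, and both hosts stayed below the median gene in all 4 libraries.

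Other hosts showed the same nesting at their own level. Lrrtm1, a synaptic organiser inside the catenin gene Ctnna2, had 1.50 over 17436 bp, and an unnamed isoform of 2801 bp at its start had 3.46, against 0.413 for Ctnna2. Within Nfia, a transcription factor of glia with 0.543, an unnamed opposite-strand interval of 3735 bp had 3.54. In Sox6, a regulator of cartilage and muscle with 0.543, the antisense transcript Sox6os (802 bp) had 3.64. At the start of Prdm16 the transcript 5930403L14Rik had 3.12, and at the start of the protocadherin gene Pcdh7 an isoform of 11385 bp had 3.25. A further 5 of the 29 were microRNA genes under 100 bp, whose values rest on few counts. Counting ignored strand, so an inner gene and its host share these reads.

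Inner intervals of other genes were listed in 210 of the 372 members and took up little of their length (median 2.96%). After their counts and lengths were taken away, the remaining density was 0.842 to 1.51 times that of the whole member over these 210, and 206 of them stayed within 10% of it. Those that moved further were an unnamed interval on chromosome 2 (0.842 times), Med12l (1.11 times), Kcnq1 (from 2.33 to 2.75) and Iqschfp (from 0.473 to 0.713), where inner intervals covered 98.9% of the length.

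Isoforms that share an end within 100 bp but start further in allowed 191 members to be divided into 617 stretches. The stretch before the second start was denser than the rest of the member in all 4 libraries in 122 of the 191, and less dense in all 4 in 44. The median ratio of first stretch to rest was 1.16, with 10th and 90th percentiles of 0.806 and 1.81. Between the densest and sparsest stretch of a member the median ratio was 1.38, and 37 members reached 2-fold. The genes named from this comparison were chosen after their values were seen.

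Stag1, a cohesin subunit, had the steepest decline from its start. Its first 45747 bp had 0.566 and 0.671 at 0 h (clones A and B) and 0.553 and 0.609 at 2 h, while the remaining 314615 bp had a mean of 0.117, a ratio of 5.13. Dlc1 had 0.409 over its first 340359 bp and 0.0840 over the last 45069 bp. First stretches past the limit of a marked interval stood before less dense bodies in Zfp536 (2.09 over 20770 bp, 0.736 after it) and Sox6 (1.45 over 43658 bp, 0.467 after it). The body of Zfp536 was itself above 2 times the median gene. In the cytoskeletal linker gene Macf1 the first stretch (0.314) did not reach the median gene, yet exceeded the rest (0.104) 3.03-fold.

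The opposite order occurred as well. Sema6d, a semaphorin, had 0.442 over its first 519979 bp and 1.13 over the last 57876 bp. Kif26b went from 0.953 over the first 272620 bp to 1.47 over the last 140832 bp, so its second stretch alone passed the limit of a marked interval. Cdh23 held the widest range, from 1.22 in the first 38912 bp to 0.146 in the last 2709 bp, although that last stretch rests on 23 to 39 counts per library. Foxp1, a forkhead gene, went from 0.865 in the first of 10 stretches to 0.163 in the last.

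Among the 10 longest members both even and uneven genes occurred. Dlg2 was divided into 9 stretches whose densities ran from 0.323 to 0.411, all within 1.27-fold of one another along 1972927 bp. In Dmd the 4 stretches had 0.137, 0.152, 0.186 and 0.0550, the lowest being the 156756 bp at the end that hold the short isoforms. That last stretch was lowest in every library, at 0.0629, 0.0530, 0.0479 and 0.0564. The densest stretch thus exceeded the sparsest 3.39-fold in Dmd, 1.98-fold in Pcdh15 and 1.54-fold in Ptprd, all above the median of the divided members.

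**Figure D3:**
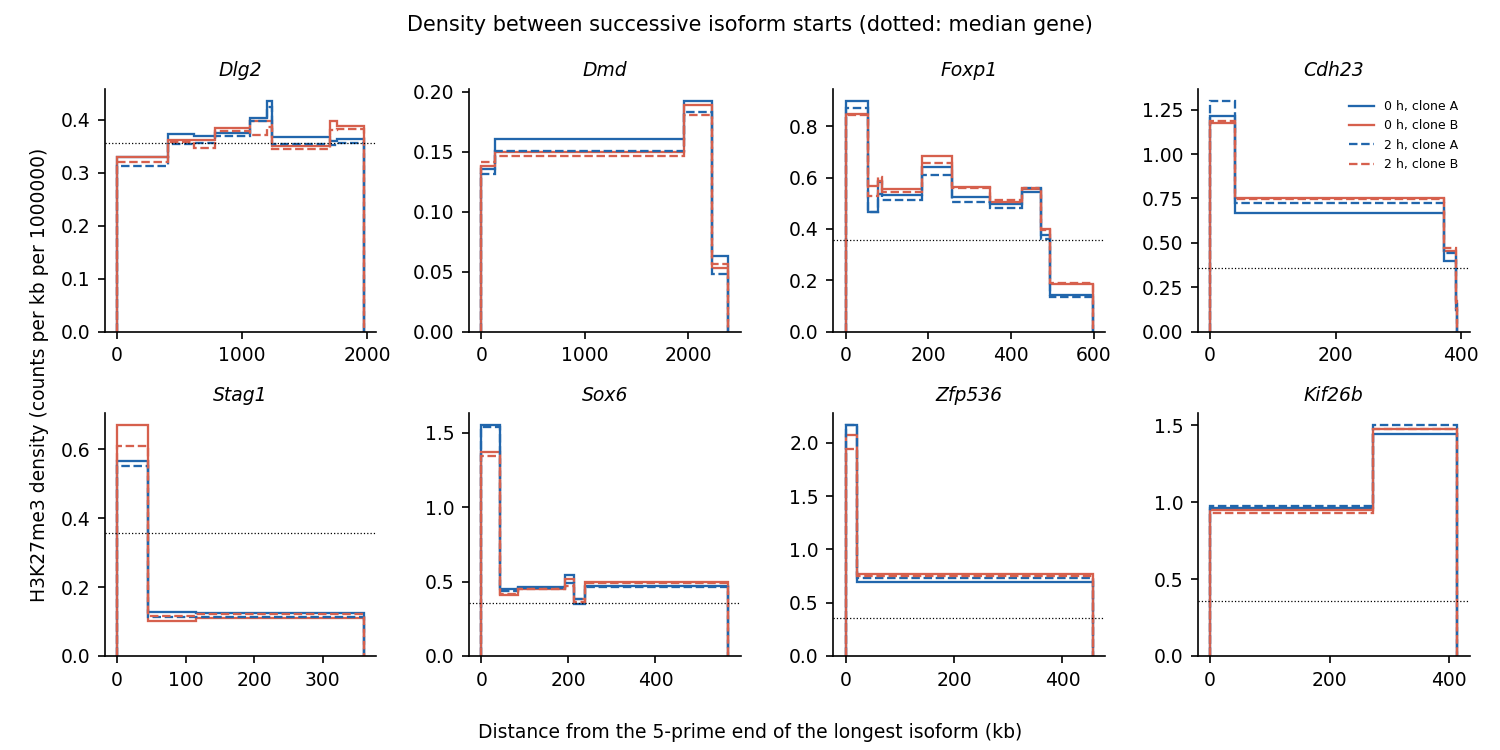
Density (counts per kb per 1000000, axes from 0 and scaled per gene) between successive isoform starts of 8 very long genes, against distance in kb from the start of the longest isoform, with clone A in blue, clone B in red, 0 h solid and 2 h dashed. Zfp536 and Stag1 open with 2.09 and 0.600 and are lower after it, Dlg2 stays between 0.323 and 0.411, and the 4 libraries follow one another in each gene.

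The treatment comparison asked whether 2 h of RAF activation altered H3K27me3, and over very long intervals no change was found. At an edgeR quasi-likelihood, Benjamini-Hochberg adjusted p under 0.05, 0 of the 372 members were called higher or lower at 2 h, and the share called among all 50037 tested intervals was also 0% in each direction. At an unadjusted p under 0.05 stood 0 members in edgeR, against 188 of all tested intervals (0.376%), and 0 members in DESeq2, against 2. With the clone as a replicate block again 0 members were called (0% of all intervals). An unadjusted p under 0.05 in that fit was reached by 4 members (1.08%), Shank2, Sorcs2, Iqsec1 and Gse1, against 4.15% of all tested intervals, and each of the 4 had an adjusted p of 1.00.

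The fitted changes of the members were small and their intervals narrow. The log2 changes ran from -0.10 to 0.12, and the 95% interval of the change lay wholly within 1.25-fold for 341 of 372 members (91.7%), compared with 21.7% of shorter intervals. With the clone as a block it did so for 371 (99.7%) and 63.4%. The median standard error was 0.0797 on the log2 scale for members and 0.145 for shorter intervals.

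The members with the lowest p among those of 1 sign in both clones, 5 for each direction, show the size of what was left. Sorcs2, a sortilin-family receptor, had 0.544 and 0.580 at 0 h and 0.620 and 0.600 at 2 h, and its change was 0.12 ± 0.0760 on the log2 scale (SE, edgeR, adjusted p = 1.00). Its 2 h libraries lay above both 0 h libraries. Iqsec1, an exchange factor for Arf GTPases (0.10), Prdm16 (0.10), Mad1l1 (0.09) and Cdh4 (0.07) were the others on the higher side, and none passed the test. Without the 2 h clone A library the log2 change of Prdm16 was -0.06, although it was higher at 2 h within each clone. That fit had no clone term and set 2 h clone B against 0 h of both clones. A difference between the clones thus enters it.

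Arhgap15, a Rac GTPase-activating protein, had 0.342 and 0.350 at 0 h and 0.314 and 0.339 at 2 h, and its change was -0.09 ± 0.0708 on the log2 scale (SE, edgeR, adjusted p = 1.00). Its 2 h libraries lay below both 0 h libraries. Mid1, an X-linked ubiquitin ligase (-0.10), Thsd7a (-0.09), Grik2 (-0.08) and the synaptic adhesion gene Nlgn1 (-0.08) were the others on the lower side, and none passed the test.

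A small common offset was visible although no single member passed. On the scale set by TMM, edgeR's factors that centre the bulk of intervals, 211 members (56.7%) were lower at 2 h in both clones, against 22.7% of all tested intervals, and 13 (3.49%) were higher in both, against 26.4%. Such shares depend on precision as well as on the size of an offset. The median standard error of the 2 h change was 0.0797 for members and 0.145 for shorter intervals. Shares among intervals of like counts were not computed. The member median changed by -0.01 in clone A and -0.05 in clone B, which is 0.0286 and 0.0553 below the median of shorter intervals on the log2 scale. Column totals in place of TMM gave 216 lower (58.1%, against 21.6% of all intervals) and 22 higher (5.91%, against 28.9%). The median-of-ratios factors of DESeq2 gave 213 (57.3%, against 24.7%) and 9 (2.42%, against 22.8%). A scaling factor moves all intervals of a library alike, so the distance between members and shorter intervals is the same under all 3 by construction. Each clone gives 1 pair of libraries, and the offset itself was not tested.

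The offset deepened with length and was not limited to the members. The median log2 change was 0.02 for intervals of 10000 to 30000 bp, -0.0025 at 100000 to 200000 bp, -0.03 for members of 300000 to 500000 bp, -0.04 for those of 500000 to 1000000 bp and -0.05 for those of at least 1000000 bp. Within the interquartile range of member densities the medians were -0.04 for members (n = 186), -0.03 for intervals of 100000 to 300000 bp (n = 1688) and -0.02 for all shorter intervals (n = 11305).

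**Figure D4:**
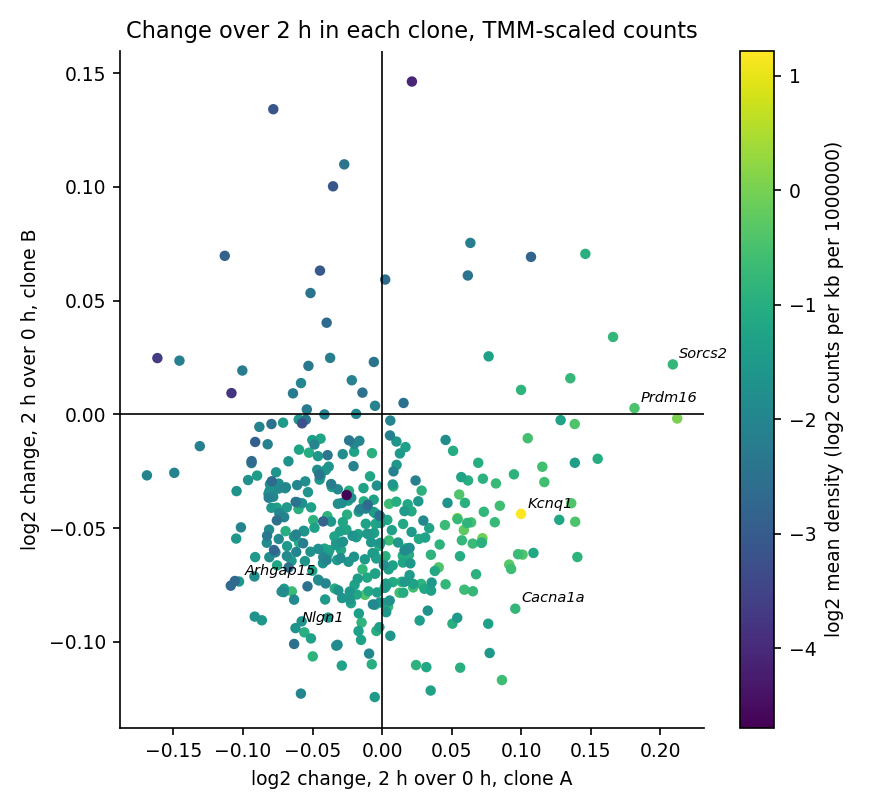
Log2 change from 0 h to 2 h of TMM-scaled counts in clone A (x axis) and clone B (y axis) for 370 very long intervals, coloured by log2 mean density, with the 2 sparsest left out. Most points lie below the horizontal line and near 0, and the brighter, denser members lie to the right. The lower left quadrant holds members lower in both clones, which were 211 of all 372, counting those left out.

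The clones moved apart by density. In the sparsest sixth of members (62 intervals up to 0.237) the median change over 2 h was -0.05 (clone A) and -0.01 (clone B). In the densest sixth (62 intervals from 0.531) the medians were 0.06 (clone A) and -0.05 (clone B). With 1 pair of libraries per clone this difference was not tested.

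The libraries also allow clone A and clone B to be compared over both times, and here many intervals of the table differed, members among them. At an adjusted p under 0.05 in edgeR, 122 of 372 members (32.8%) were called, against 27.5% of all tested intervals. Higher in clone B were 76 members (20.4%), against 10.3% of all intervals, and higher in clone A were 46 (12.4%), against 17.3%. Counted without a test, both clone B libraries lay above both clone A libraries in 188 members (50.5%, against 31.7% of all intervals), and clone A lay above clone B in 98 (26.3%, against 29.2%). With column totals in place of TMM 118 members were called higher in B (31.7%, against 12.2% of all intervals) and 46 higher in A (12.4%, against 15.5%). With the factors of DESeq2 the counts were 57 (15.3%, against 10.4%) and 30 (8.06%, against 15.6%). The size of the excess on the clone B side depended on single libraries. Without the 0 h library of clone B 34 members were higher in B (9.14%, against 6.80% of all intervals) and 32 higher in A (8.60%, against 12.1%). Without the 0 h library of clone A these were 35 (9.41%, against 7.47%) and 28 (7.53%, against 16.1%), and without the 2 h library of clone A 44 (11.8%, against 8.15%) and 42 (11.3%, against 12.9%). Without the 2 h library of clone B they were 98 (26.3%, against 8.77%) and 18 (4.84%, against 10.5%).

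The largest differences were in genes higher in clone A. Cacna1a, the pore of P/Q-type calcium channels in neurons, had 0.679 and 0.716 in clone A (0 h and 2 h) and 0.475 and 0.456 in clone B. The log2 difference of B over A was -0.60 ± 0.0501 (SE, edgeR, adjusted p = 1.91e-30), and the times overlapped. Ttc28, a tetratricopeptide repeat gene, had 0.698 and 0.728 (clone A) against 0.520 and 0.512 (clone B) (log2 difference -0.49, adjusted p = 5.16e-20 in edgeR). Gse1, a coiled-coil protein found with histone demethylase complexes, had 0.575 and 0.627 (clone A) against 0.421 and 0.451 (clone B) (log2 difference -0.48, adjusted p = 7.93e-20 in edgeR). In these 3 genes the gap between clones was several times the gap between times.

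The other 7 named on that side differed by less, and most were sparse. Plxdc2 (-0.33), the X-linked teneurin Tenm1 (-0.31), Rabgap1l, a Rab GTPase-activating protein (-0.30), the splicing factor Rsrc1 (-0.30), Dach2 (-0.29), the formin Fmn2 (-0.28) and the teneurin Tenm4 (-0.27) passed the test with adjusted p-values from 1.58e-09 to 1.50e-06. Kcnq1 was also called, with -0.16 (adjusted p = 0.00924 in edgeR).

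Galnt18 had the largest difference on the clone B side, with 0.628 and 0.682 (clone A) against 0.830 and 0.843 (clone B) (log2 difference 0.33 ± 0.050, SE, adjusted p = 8.02e-10 in edgeR). Ntm, a GPI-anchored neural adhesion protein spanning 968737 bp, had 0.446 and 0.458 (clone A) against 0.587 and 0.553 (clone B) (0.32, adjusted p = 1.34e-08 in edgeR). Its neighbour Opcml, of the same protein family, had 0.370 and 0.374 (clone A) against 0.463 and 0.434 (clone B) (0.25). Clone B exceeded clone A in every pairing of libraries for these 3 genes.

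Further members named on the clone B side were Adamts17 (0.30), Frmd4b, a scaffold of cell polarity (0.30), Kirrel3, a synaptic adhesion gene (0.29), Maml2, a Notch coactivator (0.28), the cadherin Fat3 (0.27), the GABA receptor subunit gene Gabbr2 (0.26) and Adam12 (0.25). In the list of synaptic and neural adhesion genes 6 of 31 members were called higher in B and 5 higher in A, with a median log2 difference of -0.0012. All 20 members named for a clone difference kept their direction and passed the test under each alternative that was run, including each left-out library.

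Among the members the clone difference varied with density and chromosome. Spearman's rank correlation between the log2 difference and density was 0.456 over the 372 members (a description across intervals of the same 4 libraries). In the sparsest sixth of 62 members 6 were called higher in B (9.68%) and 19 in A (30.6%), and in the densest sixth 27 in B (43.5%) and 5 in A (8.06%). Shorter intervals of the same densities had 6.79% and 5.08% in the sparse range and 13.1% and 30.9% in the dense range, so there the dense intervals were more often called higher in A. Chromosome 9 had 14 of 28 members called higher in B (50%) and 3 in A (10.7%), where its shorter intervals had 11.6% and 14.9%. Chromosome X had 2 of 26 members (7.69%) and 7 (26.9%), where its shorter intervals had 6.34% and 11.3%. Of the 27 transcription and chromatin regulators 11 were called higher in B and 3 in A, and of the 18 housekeeping genes 0 and 4, against 10.3% and 17.3% of all tested intervals. These differences in share were not tested.

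**Figure D5:**
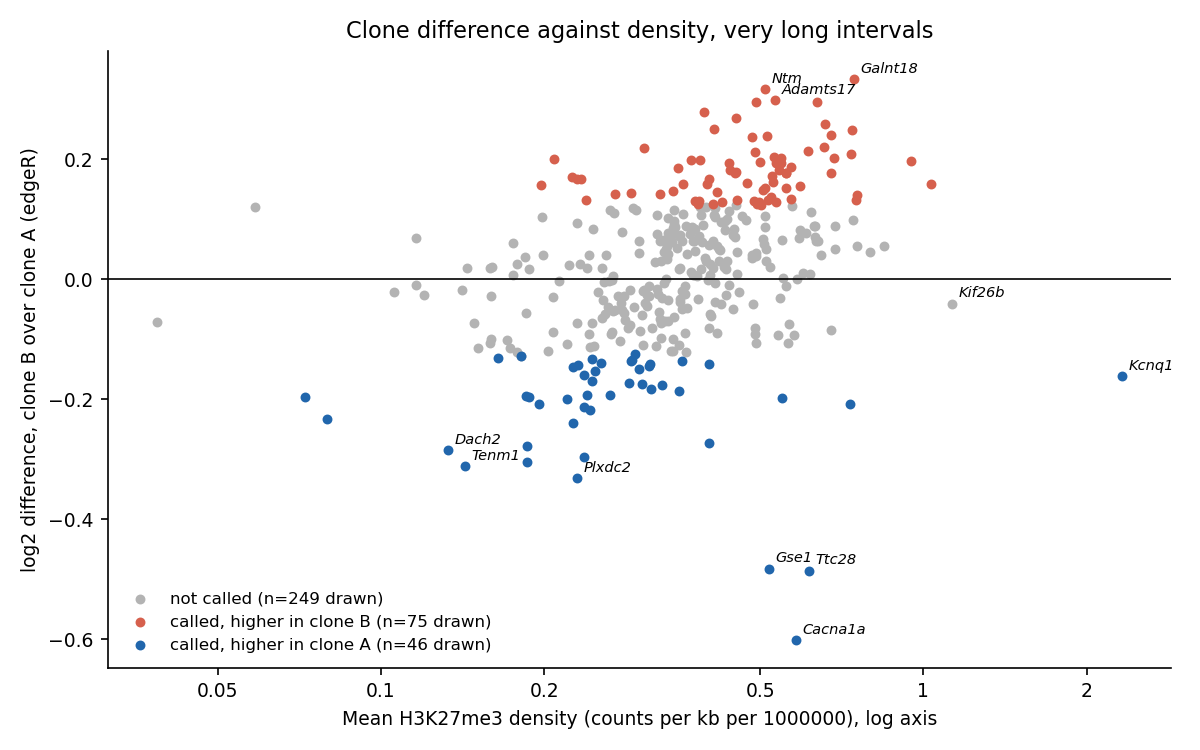
Log2 difference of clone B over clone A (edgeR) against mean density (counts per kb per 1000000, log axis) for 370 very long intervals, the 2 sparsest left out, with called members in red (higher in B, 75 of the 76 drawn) and blue (46 higher in A). Red points gather at higher and blue points at lower densities, and Cacna1a, Ttc28 and Gse1 lie apart at -0.60, -0.49 and -0.48.

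Where isoforms allowed it, the clone difference was followed along the gene, as values without a test. In Cacna1a both parts differed, by -0.44 over the first 76724 bp and by -0.67 over the last 224886 bp. In Gse1 the difference lay in the first 260031 bp (-0.52), where the density was 0.640, and was -0.05 over the last 92518 bp, where it was 0.178. In Ntm it was even, at 0.32 over the first 549868 bp and 0.31 over the last 418869 bp. In Fat3 it was 0.15 over the first 124634 bp and 0.31 over the last 468039 bp.

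Neighbours of the 20 named members were compared with them through the nearest tested interval of at least 10000 bp on each side. Of these 40 neighbours 10 were called in the same direction as the member, 1 in the opposite direction and 29 were not called. Over all tested intervals 27.5% were called in either direction, 10.3% higher in clone B and 17.3% higher in clone A. The share of neighbours called in either direction thus lay at the background. The calls went mostly with the member, and this was not tested. Beside Cacna1a, Ccdc130 (0.18) and Nacc1 (0.03) were not called, and beside Ttc28 neither were Chek2 (0.03) and Pitpnb (-0.04), all 4 of them sparse. Ntm and Opcml were each other's nearest neighbour, with a shorter isoform of Opcml beside Ntm, and differed together. Both genes were already named as higher in clone B, so their calls among the 10 are not separate from that choice.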

How the data were processed

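Per the file headers, the values the authors deposited for the 4 H3K27me3 libraries are raw whole-number counts of reads in each transcript interval. Per the submitters' processing notes, reads were handled with Bowtie2 and bedtools on mm10, whose versions the sources used here do not give. The table covers chromosomes 1 to 10, X, Y and M. Input libraries, 12 per-library and 4 per-time columns of derived values were left out. Intervals overlap, so 1 read may enter several counts and column totals exceed the reads behind them. No counts carry molecular identifiers.

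An interval took the RefSeq gene it overlapped by at least 0.5 of the union and 0.2 more than the next gene. Isoforms overlapping by at least 0.5 were collapsed to the longest. Counts were divided by kb of interval and by the column total in units of 1000000 (density). Starts sharing an end within 100 bp and at least 10000 bp apart gave the stretches. The members, lists and tests were chosen with earlier results of these data known.

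Counts of all intervals were tested with edgeR 4.0.16 (TMM, filterByExpr, quasi-likelihood; 50037 intervals; Benjamini-Hochberg over all of them, read at 0.05) in R 4.3.3 with limma 3.58.1, and summarised in Python 3.11.15 with pandas 2.3.3, SciPy 1.17.1 and matplotlib 3.10.9. The fits were run on simulated counts with no clone difference and less spread than these libraries showed in the treatment fit. That trial does not show how the treatment test performs here. Per the labels each clone was taken at 0 h and at 2 h, which pairs the libraries by clone; deviations from the time means correlated within a clone (r = 0.863 over the members, 0.514 over all tested intervals). Alternatives were DESeq2 1.42.0, other scaling factors, filters, length and density limits, a block for the clone and fits without each library in turn. Named genes were the 10 longest, 12 densest and 8 least dense members, 5 per direction for time, up to 10 per direction for clones, 3 highest and 2 lowest per list and 3 on each side of the length limit. Other genes were named after their values were seen.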

Additional observations from a re-analysis of the deposited data

Results flagged for a closer look

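In 3 summaries of the very long intervals clone A and clone B moved in opposite directions over 2 h. Each clone gives 1 pair of libraries, so none of these differences was tested.

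The median log2 change of the 27 transcription and chromatin regulators was 0.01 (clone A) against -0.05 (clone B), a difference of 0.0544. Among all members sorted into sixths by density, the fifth sixth (0.422 to 0.529) had 0.01 and -0.06, a difference of 0.0621. The densest sixth had 0.06 and -0.05, a difference of 0.115. Of the regulators 20 of 27 were denser than the median member, so the list and the dense sixths overlap.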

How the results depend on the processing

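The treatment result kept its count of 0 called members under every alternative that was run, the clone as a replicate block included (0), and the block left the clone split at 78 higher in B and 48 in A when time was a term. The density ratio of members over shorter intervals (log2 0.179) was 0.146 with a length limit of 200000 bp, 0.1245 with 500000 bp, 0.0780 with a mean count of at least 50 and 0.0190 against 1 interval per gene, an alternative added after the data were seen; it stayed above 0. The marked share (0.269%) was 3.76% at a limit of 2 times the median gene, 0% at 8 times and 0% with the 500000 bp limit, where Kcnq1 is no member. Clone calls (76 higher in B, 46 in A) were 128 and 99 among the 652 intervals of at least 200000 bp (19.6% and 15.2%). They were 31 and 15 among the 150 of at least 500000 bp (20.7% and 10%). Of the members called, 62.3% were higher in B. This share was 56.4% with the 200000 bp limit and 67.4% with the 500000 bp limit, so the split moved with the length limit too. Calls higher in A were 30 with DESeq2 size factors, and calls higher in B 118 with column totals. Leaving out 1 library gave 34 to 98 higher in B and 18 to 42 higher in A; without 0 h clone A they were 35 and 28, without 0 h clone B 34 and 32, without 2 h clone A 44 and 42, and without 2 h clone B 98 and 18. The cause of these shifts was not tested. Prdm16 changed sign over 2 h without the 2 h clone A library (-0.056; fits without 1 library ran from -0.056 to 0.22). With 2 libraries per time, changes over 2 h smaller than the intervals given in the text could not be resolved.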
